A study of Mus musculus with 10 samples.

Results

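Open chromatin was compared between innate lymphoid cells (ILCs) that had lost both RORgt and T-bet and ILCs that had lost RORgt alone. The comparison used 4 of the 10 ATAC-seq libraries of the series, RORgt-Tbet-KO (n = 2) against RORgt-KO (n = 2), and every one of the 36251 peaks outside chromosome Y, of 36262 in all. RORgt-Tbet-KO mice were Id2creERT2+ and tdRFP+, with loxP-flanked alleles of the gene for RORgt and of Tbx21 (Tbx21f/f), which encodes T-bet. RORgt-KO mice carried the same driver, reporter and RORgt alleles without Tbx21f/f. Beside them stood RORgt-RORa-KO mice (n = 3), which carried Roraf/f in addition to the RORgt alleles, and Control mice (n = 3), which carried the driver and reporter and no floxed allele. All groups were C57BL/6, all received tamoxifen in the diet for several weeks, and the cells came from the small intestinal lamina propria. The inducible Cre is driven from Id2, a gene that ILCs share with other lymphocytes, so it is not specific to a subset. Each library came from 1 mouse or a small pool of mice. The sources used here do not give age, sex, the surface markers of the sort or the exons between the loxP sites.

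ATAC-seq counts how often the Tn5 transposase inserts into a stretch of DNA, which it does more often where chromatin is open. T-bet is a T-box factor that binds enhancers and promoters of type 1 genes, among them those for interferon gamma, the IL-12 receptor and CXCR3, in ILC1, natural killer (NK) cells and Th1 cells. RORgt is the nuclear receptor that defines group 3 ILCs, which make IL-22 and IL-17, and the NKp46-expressing subset of these cells also uses T-bet. Values are the authors' log2 scaled read counts per peak, called levels here, and a difference of 1 is a 2-fold change. A peak is assigned to the nearest protein-coding gene within 50 kb, without evidence that it regulates that gene. In such sorted pools, fewer cells with an open site and less opening per cell cannot be told apart.

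Sequence was at hand for promoter windows only. Calls with a smaller adjusted p, such as those in Nav2 and Il12rb2, lay in introns and are not shown here. The windows shown are 300 bases long, come from RefSeq (GRCm38.p6) and overlap a changed peak. Each runs from 250 bases before to 50 bases after a transcript start, written 5′ to 3′ along the gene. Capitals mark the T-box letters TCACACC or their reverse complement GGTGTGA. Nkg7 (chr7:43436888-43437187, plus strand) and Samd3 (chr10:26229457-26229756, plus strand) hold a match just before the start, and both peaks fell. The window of the predicted gene Gm31871 (chr9:32594246-32594545, plus strand) lies in the changed peak 41571 bp from Ets1. Ifng (chr10:118440796-118441095, plus strand) is shown because its promoter peak fell and its window holds no such match.
Nkg7: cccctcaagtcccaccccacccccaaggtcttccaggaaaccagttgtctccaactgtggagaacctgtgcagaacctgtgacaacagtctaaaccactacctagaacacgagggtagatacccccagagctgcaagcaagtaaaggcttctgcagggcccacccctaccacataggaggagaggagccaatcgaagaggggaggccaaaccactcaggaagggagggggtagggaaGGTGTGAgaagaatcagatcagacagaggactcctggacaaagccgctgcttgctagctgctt
Samd3: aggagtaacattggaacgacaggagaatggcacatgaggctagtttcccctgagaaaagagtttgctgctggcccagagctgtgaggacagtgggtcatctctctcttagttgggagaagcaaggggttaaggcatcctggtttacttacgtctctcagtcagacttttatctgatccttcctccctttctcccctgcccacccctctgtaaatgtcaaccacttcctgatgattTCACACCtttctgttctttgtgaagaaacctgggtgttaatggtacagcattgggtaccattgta
Gm31871 (Ets1 peak): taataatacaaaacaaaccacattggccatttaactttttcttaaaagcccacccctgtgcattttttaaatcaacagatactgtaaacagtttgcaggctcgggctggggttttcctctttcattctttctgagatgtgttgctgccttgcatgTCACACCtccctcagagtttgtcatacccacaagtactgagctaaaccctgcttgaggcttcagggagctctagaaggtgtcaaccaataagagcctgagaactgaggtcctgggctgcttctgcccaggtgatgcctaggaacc
Ifng: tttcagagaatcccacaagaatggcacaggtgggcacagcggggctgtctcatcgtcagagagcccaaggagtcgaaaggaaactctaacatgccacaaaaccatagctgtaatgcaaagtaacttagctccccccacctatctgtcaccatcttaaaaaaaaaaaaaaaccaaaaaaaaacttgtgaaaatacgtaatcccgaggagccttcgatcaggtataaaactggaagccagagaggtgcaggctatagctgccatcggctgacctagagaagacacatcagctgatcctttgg
The matches end 7 bases before the start in Nkg7, 9 in Samd3 and 89 in Gm31871, and none overlaps a match to the other motifs searched. Of 15 promoter windows that overlap a lower peak, 4 (26.7%) hold TCACACC on either strand, against 3.3% of 11673 windows that overlap a peak without a call and 3.98% of all 32851 windows. The RUNX letters TGTGGTT were also in 4 of the 15, against 4.02% of windows with an uncalled peak. The ROR motif AGGTCA was in 4 of 15 (11.4% of windows with an uncalled peak) and the AP-1 letters TGANTCA in 2 of 15 (4.62%). A match describes the letters of the window only. Most changed peaks lie away from promoters, and their sequences were not used here.

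Most peaks that changed with added loss of T-bet were lower. In limma, with all 4 groups in the fit, 415 peaks (1.14% of those tested) passed an adjusted p of 0.05, 350 lower (0.965%) and 65 higher (0.179%) in RORgt-Tbet-KO. By at least 2-fold, 337 were lower (0.93%) and 40 higher (0.11%), 1.04% of all peaks together. The lower peaks had a median difference of -1.82 and lay nearest to 253 genes, and the higher peaks had a median difference of 1.06 and 57 nearest genes. At all 415 the libraries of the groups did not overlap, a property also of 28.2% (above) and 25.5% (below) of all peaks. The median difference over all peaks was 0.02 and the median SE 0.33. Single libraries moved the count by more than 1.5 times: leaving out RORgt-Tbet-KO replicate 1 or 2 gave 124 or 204 peaks, leaving out RORgt-KO replicate 1 or 2 gave 91 or 141, and 712 passed without RORgt-RORa-KO replicate 2. With the RORgt-Tbet-KO and RORgt-KO libraries alone in the fit, 3341 peaks passed and 57.9% of them were higher, against 15.7% in the fit of all groups; at 2-fold or more that fit called 821 lower and 288 higher. Library weights gave 3148 (49.9% higher), voom with TMM scaling 637 (28.9% higher) and a fit without the mean-variance trend 95 (4.21% higher).

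**Figure D1:**
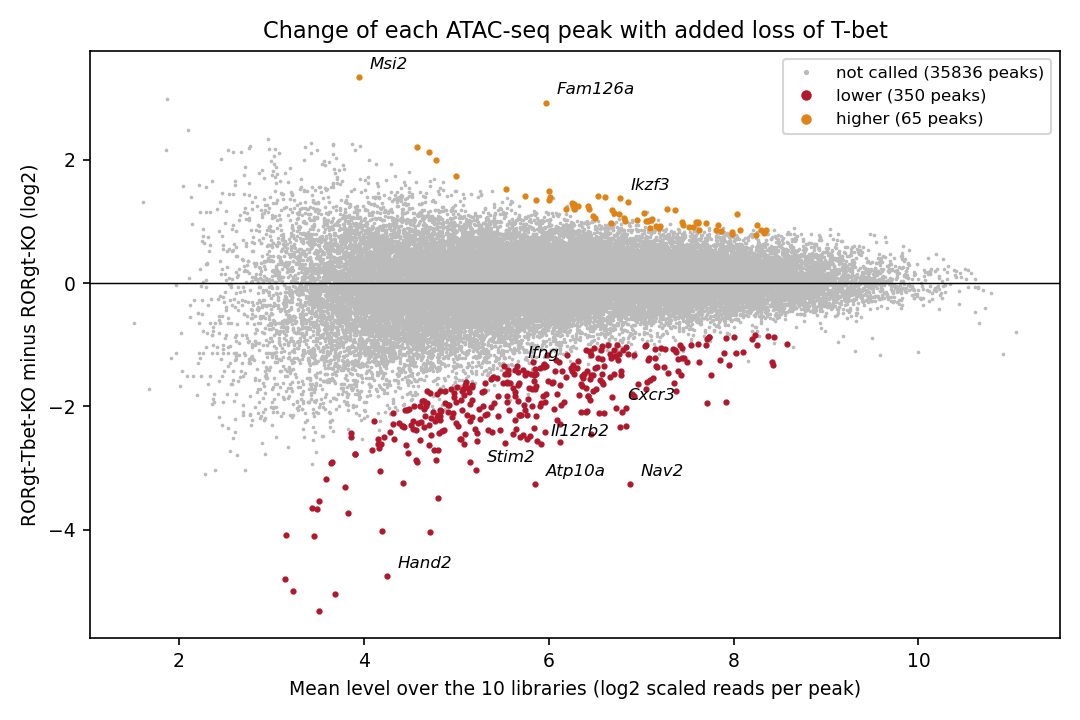
Difference between RORgt-Tbet-KO and RORgt-KO (log2, y axis) against the mean level over all 10 libraries (log2 scaled reads, x axis), 1 point per peak. The 350 lower peaks reach further from 0 than the 65 higher ones, and the labelled genes are described in the text.

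The depth of the groups differed and was checked next. Reads in peaks numbered 4581343 and 5048636 in RORgt-Tbet-KO, against 3389482 and 2631420 in RORgt-KO, so the median peak held 64 and 73 reads in RORgt-Tbet-KO, against 50 and 38 in RORgt-KO. The share of peaks under 10 reads was 5.04% and 3.39% in RORgt-Tbet-KO, against 5.62% and 9.18% in RORgt-KO. The median difference moved with level, at -0.14 in the lowest of 10 equal bins of mean level and 0.07 in bin 9. After every library was thinned to 2271585 reads, 395 peaks passed, 332 lower and 63 higher, and 312 of the 415 calls held. None of the 415 changed sign after thinning or under another scaling. The calls were at least 0.77 (higher) and 0.84 (lower) in size. Centring moves all differences alike, and the median over all peaks was 0.01 with library medians and 0.04 with gene-end peaks. Under centring the sign of the calls was therefore fixed as well. In the other alternatives the sign was fixed, because they kept the estimate or left the libraries of the groups apart. Calls came from all levels: they made up 0.414% of the peaks in the highest bin and 1.88% in bin 7.

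**Figure D2:**
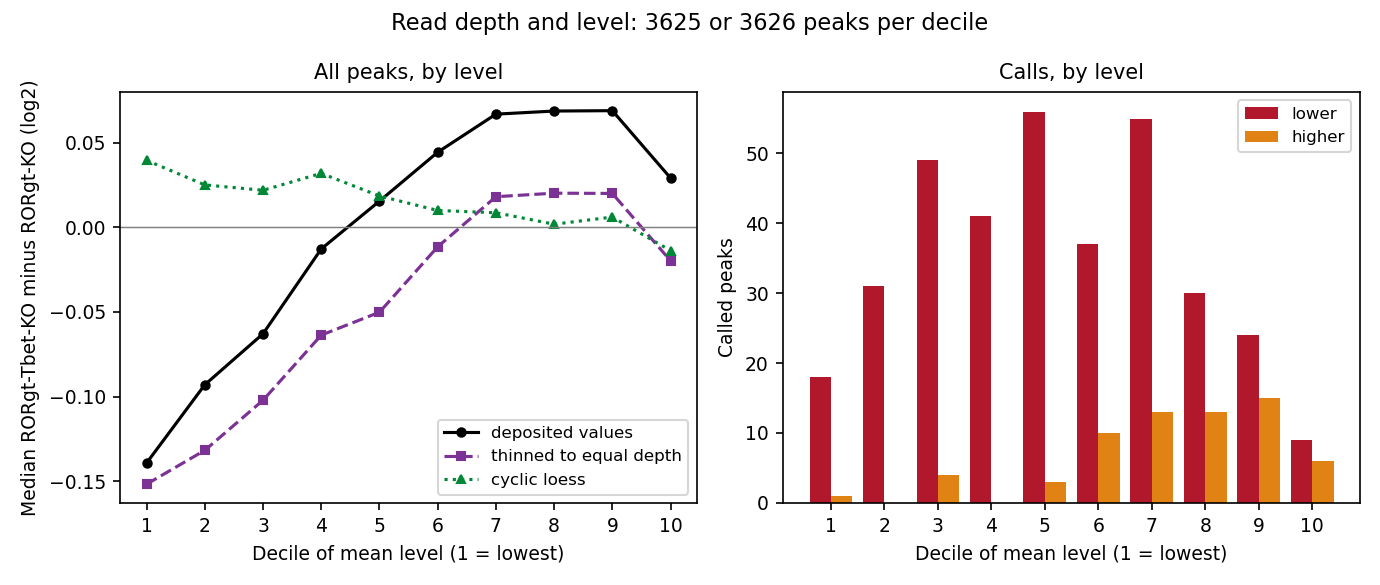
Left, the median difference between RORgt-Tbet-KO and RORgt-KO (log2) in 10 equal bins of mean level, for the deposited values, for libraries thinned to equal depth and after cyclic loess normalization. Right, the number of lower and higher calls in each bin; lower calls outnumber higher ones in all 10.

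The targeted gene gave no lower peak. In the Tbx21 gene body, the peak at chr11:97112532-97113091 was at 6.69 and 6.92 in RORgt-Tbet-KO, against 5.84 and 5.78 in RORgt-KO, and the difference of 1.00 (SE 0.32) did not pass (adjusted p = 0.136). The RORgt-Tbet-KO libraries lay above the others there. The peak at 97104194 differed by 0.60 (adjusted p = 0.758), and the one 8213 bp outside the gene by -0.35 (adjusted p = 0.772). Without the floxed exons, these peaks do not test the deletion.

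Among cytokine receptors of type 1 cells, Il12rb2 had the clearest loss. It encodes the IL-12 receptor subunit that signals through STAT4. Its intronic peak at chr6:67347988-67348479 was at 4.16 and 4.50 in RORgt-Tbet-KO, against 6.99 and 6.90 in RORgt-KO, with 7.48, 7.86 and 7.42 in RORgt-RORa-KO and 4.62, 4.69 and 4.48 in Control. The RORgt-Tbet-KO libraries thus lay at the level of Control, and the RORgt-KO libraries far above both. The level fell by 2.61 (SE 0.30, adjusted p = 9.67e-06) against RORgt-KO and by 3.26 against RORgt-RORa-KO (adjusted p = 1.9e-08), while RORgt-KO was 2.34 above Control; these comparisons share libraries. The promoter peak of Il12rb2 differed by -0.73 (adjusted p = 0.24), and a further intronic peak by -1.57 (adjusted p = 0.199). Of 38 peaks at 10 receptor genes of this group, that peak of Il12rb2 was the single call (2.63%, against 1.14% over all peaks). The median difference was 0.15, and the differences at Il18r1 and Il18rap, subunits of the IL-18 receptor, ran from -0.16 to 0.68.

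The 35 peaks of type 1 effectors lay at 9 of the 13 genes listed. Of these peaks, 2 were lower (5.71%, against 1.14% called over all peaks) and 0 higher, and both calls were promoter peaks. Nkg7, a granule membrane protein of cytotoxic lymphocytes, was at 7.03 and 7.03 in RORgt-Tbet-KO, against 8.14 and 8.02 in RORgt-KO, with 8.72, 8.82 and 8.73 in RORgt-RORa-KO and 5.83, 5.62 and 6.48 in Control. The promoter peak thus kept a level above Control without T-bet. It fell by 1.05 (SE 0.24, adjusted p = 0.0199) against RORgt-KO and by 1.72 against RORgt-RORa-KO (adjusted p = 3.25e-06).

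The promoter of Ifng, which encodes interferon gamma, was at 5.04 and 4.39 in RORgt-Tbet-KO, against 6.19 and 5.94 in RORgt-KO, with 6.51, 6.77 and 6.81 in RORgt-RORa-KO and 4.96 to 5.02 in Control. The groups with and without T-bet did not overlap among the knockouts, and Control lay within the range of RORgt-Tbet-KO. The level fell by 1.35 (SE 0.33, adjusted p = 0.0349). Both effector calls were lost without any one of the 4 libraries, with adjusted p from 0.161 to 0.21 for Nkg7 and from 0.0777 to 0.53 for Ifng, and at equal depth the adjusted p of Ifng was 0.053. The promoter of Prf1 (perforin) was at 6.96 and 6.60 in RORgt-Tbet-KO, against 7.73 and 7.28 in RORgt-KO (adjusted p = 0.18), and that of Gzmb (granzyme B) at 6.32 and 6.43 in RORgt-Tbet-KO, against 6.49 and 5.97 in RORgt-KO (adjusted p = 0.89). The list's median was 0.11; Gzma, Gzmk, Gzmm and Ctsw had no peak.

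Among 20 peaks at 6 chemokine genes of type 1 cells, 2 distal ones were lower (10%, against 1.14% over all peaks) and 0 higher. The one 7254 bp from Ccl3, which encodes a chemokine that attracts leukocytes, was at 3.50 and 4.14 in RORgt-Tbet-KO, against 5.96 and 5.46 in RORgt-KO, and fell by 1.89 (SE 0.43, adjusted p = 0.0222). The one 30438 bp from Xcl1, the ligand of XCR1 on dendritic cells, was at 6.64 and 6.82 in RORgt-Tbet-KO, against 7.97 and 7.50 in RORgt-KO, and fell by 1.00 (SE 0.22, adjusted p = 0.0153). At both, RORgt-RORa-KO libraries (5.57 to 6.64 and 7.90 to 8.18) overlapped or exceeded the RORgt-KO values. The Xcl1 promoter was at 6.65 and 6.71 in RORgt-Tbet-KO, against 7.67 and 7.43 in RORgt-KO and did not pass (adjusted p = 0.127). A peak in Ccl4 differed by -2.05 (adjusted p = 0.24) and one near Ccl5 by -1.45 (adjusted p = 0.167). Of the 20 peaks, 9 had a difference above 0, and the median was -0.14, between -0.32 and -0.11 under other scalings, against 0.02 for all peaks. Leaving out RORgt-Tbet-KO replicate 1 ended both calls (adjusted p = 0.388 for Ccl3 and 0.3 for Xcl1), as did leaving out RORgt-KO replicate 1 (0.254 and 0.273); so did RORgt-KO replicate 2 for Ccl3 (0.101) and RORgt-Tbet-KO replicate 2 for Xcl1 (0.0873).

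**Figure D3:**
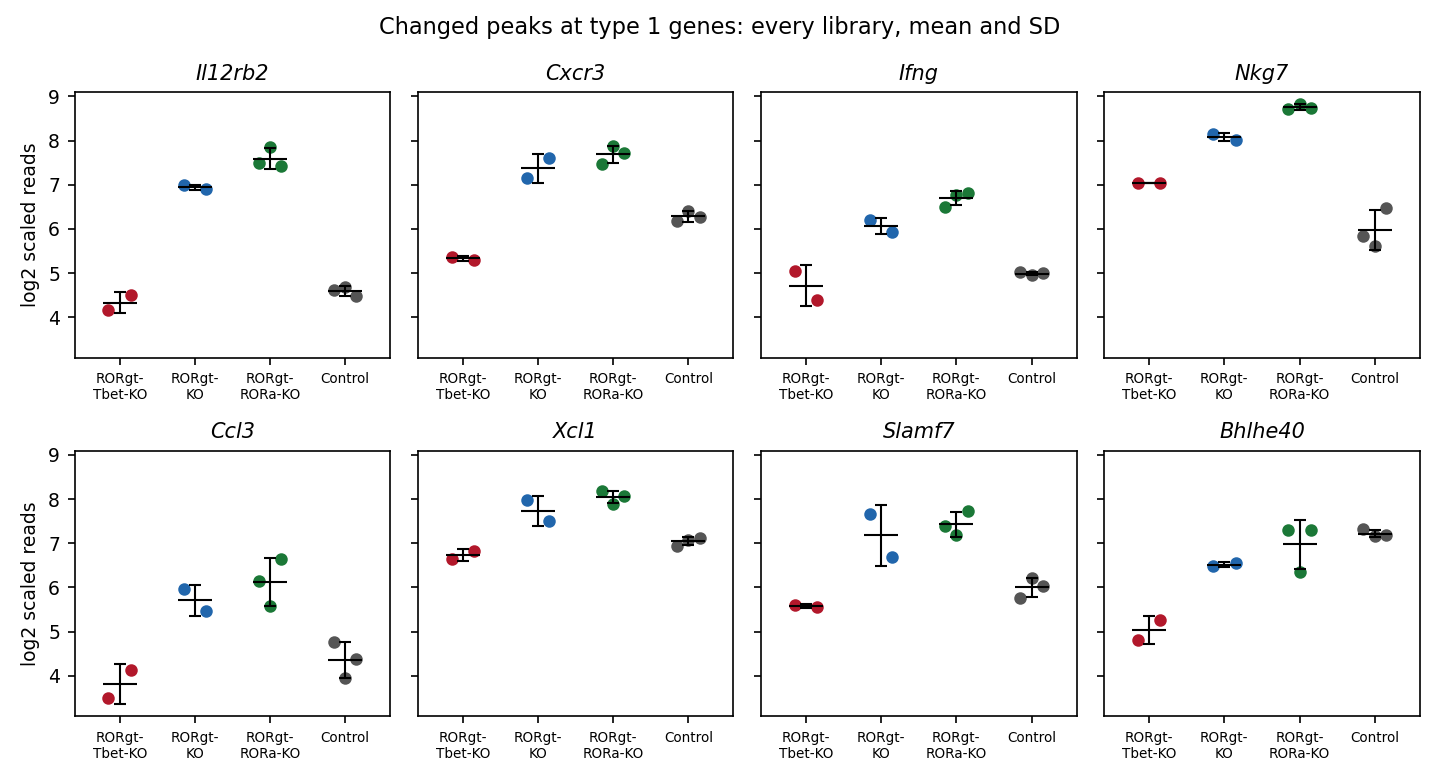
Levels (log2 scaled reads) of the changed peaks at 8 type 1 genes in every library, as points, with the mean and SD of each group. In each panel both RORgt-Tbet-KO points lie below both RORgt-KO points, from 1.00 lower on average at Xcl1 to 2.61 lower at Il12rb2.

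NK and NCR receptor genes had 2 lower and 0 higher of 54 peaks (3.7%, against 1.14% called over all peaks), with a median of -0.09. Slamf7, an activating receptor that binds itself on neighbouring cells, had a peak 2725 bp away at 5.61 and 5.55 in RORgt-Tbet-KO, against 7.66 and 6.70 in RORgt-KO. It fell by 1.60 (SE 0.29, adjusted p = 0.00224), but not past the threshold without RORgt-KO replicate 1 (adjusted p = 0.184). The other gene was Cd226, an adhesion receptor that promotes killing, with 1 lower peak of 10; its other 9 ran from -1.58 to 0.27, and its call was lost without any one of the 4 libraries (adjusted p from 0.0534 to 0.152). The promoter of Ncr1, which encodes NKp46, was at 6.67 and 6.59 in RORgt-Tbet-KO, against 7.48 and 7.03 in RORgt-KO and did not pass (adjusted p = 0.226). Both peaks of Klrk1 (NKG2D) differed by no more than 0.20.

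Homing and residency genes had 4 lower and 0 higher of 69 peaks (5.8%, against 1.14% called over all peaks), with a median of 0.10. Cxcr3, the receptor for interferon-induced chemokines, had its lower peak 3033 bp away, at 5.37 and 5.30 in RORgt-Tbet-KO, against 7.14 and 7.59 in RORgt-KO (-2.03, SE 0.25, adjusted p = 1.8e-05), while its promoter was at 6.95 and 6.91 in RORgt-Tbet-KO, against 6.45 and 7.09 in RORgt-KO (adjusted p = 0.871). The distal site was thus below RORgt-KO in both libraries, and the promoter overlapped. Itga1 encodes CD49a, an integrin subunit that binds collagen and marks resident ILC1. Its intronic peak was at 5.77 and 5.36 in RORgt-Tbet-KO, against 7.11 and 6.46 in RORgt-KO, and fell by 1.22 (SE 0.27, adjusted p = 0.0172). S1pr1, the receptor for the egress signal sphingosine-1-phosphate, had lower peaks at 17724 bp (-2.17, SE 0.48, adjusted p = 0.0173) and 43280 bp (-0.90, SE 0.22, adjusted p = 0.0349). The Cxcr3 call held without any one of the 4 libraries (adjusted p at most 0.00454). Those of Itga1 and S1pr1 did not, with adjusted p up to 0.342 for Itga1 without RORgt-Tbet-KO replicate 2, up to 0.373 for the first S1pr1 peak without RORgt-Tbet-KO replicate 1, and up to 0.604 for the second without RORgt-KO replicate 2.

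Of 87 peaks at 12 type 1 transcription factor genes, 1 was lower (1.15%, against 1.14% called over all peaks) and 0 were higher. It was 1 of 9 peaks of Bhlhe40, which encodes a repressor that sustains interferon gamma production in T cells. This distal peak was at 4.82 and 5.27 in RORgt-Tbet-KO, against 6.47 and 6.56 in RORgt-KO, with 7.29, 6.34 and 7.31 in RORgt-RORa-KO and 7.32, 7.15 and 7.18 in Control. RORgt-Tbet-KO was thus the lowest group, also below Control. The level fell by 1.47 (SE 0.29, adjusted p = 0.00554). The single peak of Eomes, the other T-box factor of NK cells, differed by -0.02 (adjusted p = 0.991), and 9 peaks of Stat4 had differences of up to 0.78.

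Of 213 peaks at 25 ILC lineage factor genes, 3 were lower and 1 was higher (1.88%, against 1.14% over all peaks). The lower ones were distal: 34786 bp from Ikzf2 (Helios), at 4.61 and 4.33 in RORgt-Tbet-KO, against 6.43 and 6.58 in RORgt-KO; 41571 bp from Ets1, at 4.56 and 5.24 in RORgt-Tbet-KO, against 7.03 and 6.61 in RORgt-KO; and 37546 bp from Bcl11b, at 5.36 ± 0.08 in RORgt-Tbet-KO, against 6.98 ± 0.03 in RORgt-KO (SD, n = 2 each). All 3 encode zinc finger or ETS factors of lymphocyte development. They fell by 2.04 (SE 0.31, adjusted p = 0.000348) at Ikzf2, 1.92 (SE 0.31, adjusted p = 0.000673) at Ets1 and 1.62 (SE 0.30, adjusted p = 0.00313) at Bcl11b. At Ets1 all 3 RORgt-RORa-KO libraries, at 7.21, 7.21 and 7.15, lay above RORgt-KO, and at Ikzf2 they were at 6.57, 7.43 and 6.61.

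The higher peak lay in Ikzf3, which encodes Aiolos, a relative of Helios. It was at 7.74 and 7.68 in RORgt-Tbet-KO, against 6.57 and 6.08 in RORgt-KO, with 6.44 to 6.77 in all 6 libraries of RORgt-RORa-KO and Control. The RORgt-Tbet-KO libraries stood above all others. It rose by 1.38 (SE 0.24, adjusted p = 0.00161) against RORgt-KO and by 1.02 against RORgt-RORa-KO (adjusted p = 0.00312). Of these factor peaks, the Ikzf2 call alone held without any one of the 4 libraries (adjusted p at most 0.0173). The others reached 0.186 at Bhlhe40 and 0.0812 at Bcl11b without RORgt-Tbet-KO replicate 1, 0.064 at Ets1 without RORgt-KO replicate 1 and 0.103 at Ikzf3 without RORgt-KO replicate 2.

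Of 70 peaks at 12 genes of type 3 effectors and their receptors, 2 were lower (2.86%, against 1.14% over all peaks) and 0 higher. The median was 0.25, against 0.02 for all peaks and 0.06 for the upper 18126 by level. It was 0.18 at housekeeping and 0.23 at clock genes. Cd93, a surface glycoprotein, had a peak 837 bp past its end at 5.19 ± 0.28 in RORgt-Tbet-KO, against 6.84 ± 0.17 in RORgt-KO (SD, n = 2 each), and fell by 1.64 (SE 0.29, adjusted p = 0.00163; adjusted p = 0.0792 without RORgt-Tbet-KO replicate 1 and 0.0743 without RORgt-KO replicate 1). A distal peak of Il23r, the IL-23 receptor, fell by 1.94 (SE 0.49, adjusted p = 0.0448), with 7 and 16 reads in RORgt-Tbet-KO, against 26 and 26 in RORgt-KO. That call was lost without 3 of the 4 libraries (up to 0.593 without RORgt-Tbet-KO replicate 1) and at equal depth (adjusted p = 0.0914). At Il22, whose product acts on epithelium, all 4 peaks had differences above 0, up to 1.25 (SE 0.33, adjusted p = 0.0567) at its gene end, where RORgt-Tbet-KO was at 7.32 and 7.03 and RORgt-KO at 6.49 and 5.35. A peak near Il17a was at 5.72 and 4.50 in RORgt-Tbet-KO, against 3.28 and 4.11 in RORgt-KO, without passing (adjusted p = 0.206).

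Genes of LTi-like ILC3, the lineage related to lymphoid tissue inducers, had 0 calls in 70 peaks, against 1.14% called over all peaks. Their median was 0.25, and 53 of the 70 differences were above 0, against 18657 of all 36251. Over other scalings the median ran from 0.15 to 0.27. Without adjustment for multiple tests, 4555 of all 36251 peaks had a p under 0.05. At Kit, the stem cell factor receptor, 10 peaks ran from -0.02 to 0.59, and at Ccr6, the CCL20 receptor, 6 peaks from -0.31 to 0.55. Type 2 genes had 0 calls in 25 peaks, Notch pathway genes 0 in 39, clock genes 0 in 35 and housekeeping genes 0 in 30. With 1.14% of all peaks called, 0 calls in so few peaks says little. The medians of these lists were 0.09, -0.01, 0.23 and 0.18, so positive medians were not particular to ILC3 genes. Immediate early genes, induced by stimulation and handling, had 0 in 79 with a median of 0.23. The TGF-beta list had 1.47% of its peaks called, against 1.14% over all peaks, and a median of 0.21. In the TGF-beta pathway, 1 of 68 peaks was called, an intronic peak of the signal transducer Smad3 at 8.32 and 8.50 in RORgt-Tbet-KO, against 7.70 and 7.42 in RORgt-KO; it rose by 0.85 (SE 0.21, adjusted p = 0.0365), and not past the threshold without any one of the 4 libraries (adjusted p from 0.118 to 0.533).

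The 15 largest decreases within 50 kb of a gene, predicted genes left out, lay at genes on none of these lists. Nav2, a cytoskeletal protein known from neurons and the 1 with the most reads, had an intronic peak (chr7:49093458-49094101) at 5.16 and 4.60 in RORgt-Tbet-KO, against 8.25 and 8.03 in RORgt-KO, with 7.89, 8.11 and 8.06 in RORgt-RORa-KO and 6.35, 6.20 and 6.14 in Control. RORgt-Tbet-KO was the lowest group, below Control, with 38 and 29 reads against 250 and 166 in RORgt-KO. The level fell by 3.26 (SE 0.24, 9.56-fold, adjusted p = 3.21e-09) and held in every alternative. The other 14 peaks of Nav2 ran from -1.65 to 0.66.

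Atp10a, a flippase that moves phospholipids across membranes, had a peak at 3.82 and 3.91 in RORgt-Tbet-KO, against 7.16 and 7.09 in RORgt-KO (-3.26, SE 0.34, adjusted p = 3.95e-06), while its other 24 peaks ran from -0.90 to 0.44. Stim2, a calcium sensor of the endoplasmic reticulum, had a peak at 3.82 and 3.45 in RORgt-Tbet-KO, against 6.87 and 6.46 in RORgt-KO, with 3.18, 3.96 and 3.48 in Control (-3.03, SE 0.41, adjusted p = 6.37e-05). Glcci1, a transcript induced by glucocorticoids, had a peak at 3.08 and 2.55 in RORgt-Tbet-KO, against 5.68 and 5.70 in RORgt-KO (-2.87, SE 0.46, adjusted p = 0.000574). These 3 calls held without any one of the 4 libraries, with adjusted p of at most 0.0326. At Atp10a and Glcci1 the RORgt-Tbet-KO libraries lay below all Control libraries, and at Stim2 they lay within their range.

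The RORgt-Tbet-KO levels of Atp10a, Stim2 and Glcci1 were low, and the other 11 peaks also held few reads in that group. The one 48532 bp from Hand2 had 3 and 1 reads in RORgt-Tbet-KO, against 32 and 28 in RORgt-KO, a ratio of 0.0417 after scaling for depth (exact 95% interval 0.011 to 0.112), and 9, 15 and 13 reads in Control. Neighbouring peaks near Coil and Elobl had 4 and 5 reads each in RORgt-Tbet-KO, against 44 and 50 reads at Coil and 23 and 45 at Elobl in RORgt-KO. The Elobl call was lost without RORgt-KO replicate 2 (adjusted p = 0.215), and those at Hand2 and Coil held without any one of the 4 libraries (adjusted p at most 0.00412 and 0.0405). At Coil and Elobl, Control replicate 1 also stood low, at 2.69 and 3.54, against 5.33 to 6.89 in replicates 2 and 3. Peaks in Rttn, Mllt3, Chst15 and Zfp27 and near Fxyd3, Pfpl and Memo1 fell by 2.76 to 3.64 with 1 to 16 reads in RORgt-Tbet-KO, against 16 to 63 in RORgt-KO. The one near Speer4c, a gene with near-identical copies, is uncertain. Of these 8, all lost their calls without at least 1 library of the groups, with adjusted p up to 0.621 without RORgt-Tbet-KO replicate 1 at Speer4c. In all, 7 peaks were nearly empty in RORgt-Tbet-KO (3 reads or fewer in each library) and held at least 10 in both RORgt-KO libraries, and all 7 passed the test. Within the same limits, 10 peaks were nearly empty in RORgt-KO, the group with fewer reads, and 0 of them passed. At 3 of the 7, on chromosome 8 near predicted genes, RORgt-Tbet-KO had 0 reads, against 37, 38 and 47 in RORgt-KO, at least 19.7-fold, 20.3-fold and 25.1-fold lower with a floor of 3 reads over the group; these bounds cover counting error only.

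Of the 253 genes nearest to a lower peak, 21 had more than 1, some of them predicted genes. Of the 57 nearest to a higher peak, 2 had more than 1. Lower calls were more common than higher ones (0.965% against 0.179% of all peaks), and some of these genes have many peaks. Joint loss of peaks at a gene was not tested. The genes in this paragraph were picked after their values were seen. Itpr1, the inositol trisphosphate receptor that releases calcium, had 3 lower of 27 peaks. The strongest, chr6:108540402-108540872, was at 6.45 and 6.17 in RORgt-Tbet-KO, against 8.59 and 7.93 in RORgt-KO, with 7.38 to 7.54 in Control (-1.95, SE 0.23, adjusted p = 1.02e-05). The other 2 fell by 2.22 (SE 0.35) and 1.60 (SE 0.36). The last was lost at equal depth (adjusted p = 0.0642) and without any one of the 4 libraries (adjusted p up to 0.415), which the other 2 were not (adjusted p at most 0.0348).

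Plek encodes pleckstrin, a protein kinase C substrate of leukocytes and platelets, and 3 of its 5 peaks fell. The strongest was at 3.82 and 4.45 in RORgt-Tbet-KO, against 6.90 and 6.27 in RORgt-KO, and fell by 2.45 (SE 0.35, adjusted p = 0.000169), the next by 2.70 (SE 0.47), and the promoter peak by 1.64 (SE 0.42, adjusted p = 0.0461; 0.0824 at equal depth). Inpp4b, a phosphatase that removes PI3K products, had 2 lower of 13 peaks, at 5.04 and 5.53 in RORgt-Tbet-KO, against 7.42 and 7.34 in RORgt-KO (-2.10, SE 0.25, adjusted p = 1.02e-05), and at 5.27 and 4.83 in RORgt-Tbet-KO, against 6.68 and 6.17 in RORgt-KO (-1.37, SE 0.30, adjusted p = 0.0159). The first-named peaks of Plek and Inpp4b held without any one of the 4 libraries (adjusted p at most 0.0348 and 0.00319). The second Plek peak did not without RORgt-KO replicate 1 (adjusted p = 0.079), its promoter peak without any of the 4 (up to 0.507) and the second Inpp4b peak without RORgt-Tbet-KO replicate 2 (0.296), among others.

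Acod1, which makes itaconate in myeloid cells, had 2 lower of 4 peaks, the promoter peak at 3.37 and 4.14 in RORgt-Tbet-KO, against 6.62 and 6.08 in RORgt-KO (-2.60, SE 0.41, adjusted p = 0.00052; 0.0572 without RORgt-KO replicate 1). The Samd3 promoter peak was at 3.50 and 4.20 in RORgt-Tbet-KO, against 5.99 and 6.04 in RORgt-KO (-2.16, SE 0.38, adjusted p = 0.00184; 0.104 without RORgt-Tbet-KO replicate 1, 0.0572 without RORgt-KO replicate 1 and 0.0534 without replicate 2).

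**Figure D4:**
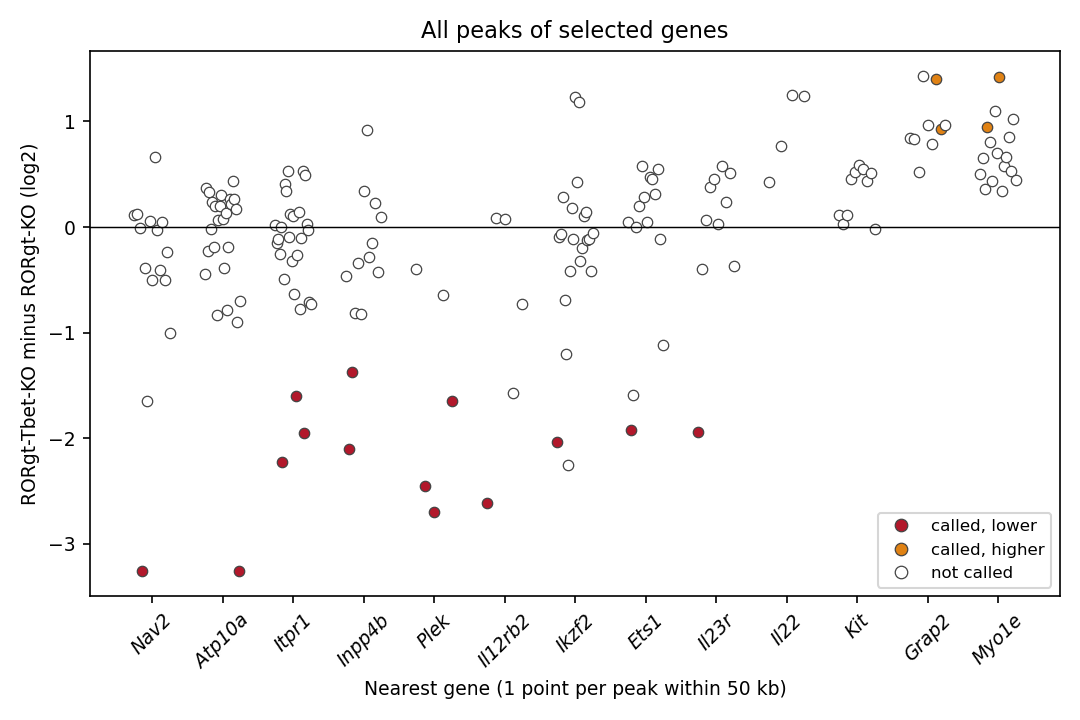
Difference between RORgt-Tbet-KO and RORgt-KO (log2) for every peak within 50 kb of 13 genes, filled where called. Lower calls stand apart from the other peaks of Nav2 and Atp10a at -3.26, while all 9 peaks of Grap2 and all 16 of Myo1e lie above 0.

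In the fit of all groups, increases were fewer and smaller than decreases. With the RORgt-Tbet-KO and RORgt-KO libraries alone, 1936 peaks were higher and 1405 lower. Fam126a, whose product belongs to a lipid kinase complex at the plasma membrane, had a peak 20581 bp away at 7.66 and 7.58 in RORgt-Tbet-KO, against 5.28 and 4.11 in RORgt-KO, with 6.34, 6.40 and 5.95 in RORgt-RORa-KO and 5.58, 5.46 and 5.38 in Control. The RORgt-Tbet-KO libraries exceeded every other. It rose by 2.92 (SE 0.33, 7.59-fold, adjusted p = 7.82e-06) and passed in all 24 alternatives. Msi2, an RNA-binding protein, had an intronic peak at 6.08 and 6.53 in RORgt-Tbet-KO, against 3.28 and 2.65 in RORgt-KO (3.34, SE 0.73, adjusted p = 0.0137).

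Ret, the receptor for GDNF family ligands, had a distal peak at 7.25 and 7.36 in RORgt-Tbet-KO, against 6.04 and 5.78 in RORgt-KO, with 5.65 to 5.98 in RORgt-RORa-KO and 7.12 to 7.73 in Control (1.40, SE 0.26, adjusted p = 0.00312). RORgt-Tbet-KO was at the level of Control there, and the other knockouts below it. A peak of Irf2bp2, a transcriptional corepressor, was at 7.68 and 7.39 in RORgt-Tbet-KO, 6.47 and 5.78 in RORgt-KO, 5.49 to 5.84 in RORgt-RORa-KO and 6.68 to 7.29 in Control (1.41, SE 0.28, adjusted p = 0.00619), so RORgt-Tbet-KO stood above Control and the other knockouts below it. Peaks in Herc1, a ubiquitin ligase, and Ppard, a lipid-sensing nuclear receptor, rose by 1.49 (SE 0.30, adjusted p = 0.00592) and 1.36 (SE 0.32, adjusted p = 0.0258).

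At other increases the difference from RORgt-RORa-KO did not pass. A peak near Akap6, a kinase anchor, was at 6.16 and 6.10 in RORgt-Tbet-KO, 4.19 and 3.82 in RORgt-KO and 5.88, 5.95 and 5.37 in RORgt-RORa-KO. It rose by 2.13 (SE 0.46, adjusted p = 0.0132) against RORgt-KO and differed from RORgt-RORa-KO by 0.40 (adjusted p = 0.668). The peak near Ypel2 rose by 1.35 (SE 0.31, adjusted p = 0.0221) and differed from RORgt-RORa-KO by 0.11 (adjusted p = 0.885). Peaks in Babam2, Nxpe4, Rhbdl3 and Septin9 rose by 1.73, 1.99, 1.53 and 1.31 and differed from RORgt-RORa-KO by 0.75, 0.67, 0.34 and 0.53 (adjusted p from 0.274 to 0.641). Ikzf3, Msi2, Ypel2, Rhbdl3 and Septin9 lie on chromosome 11, as does Tbx21, and the median difference over the 2266 peaks of that chromosome was 0.19. Grap2, the T cell adaptor GADS, and Myo1e, a membrane-associated myosin, had 2 higher peaks each, of up to 1.40 (SE 0.31) and 1.42 (SE 0.31). Apart from Fam126a, each increase named from Msi2 on lost its call without at least 1 of the 4 libraries, with adjusted p up to 0.268 at Msi2, 0.0984 at Ret, 0.295 at Irf2bp2, 0.226 at Herc1 and 0.427 at Ppard; those of Akap6, Babam2, Rhbdl3, Ppard, both Grap2 peaks and 1 of Myo1e were also lost at equal depth (adjusted p from 0.0569 to 0.154).

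Across the 350 lower peaks, the median level was 4.44 and 4.63 in RORgt-Tbet-KO, against 6.43 and 6.24 in RORgt-KO, with 6.48, 6.61 and 6.24 in RORgt-RORa-KO and 5.46, 5.62 and 5.58 in Control. As a set these peaks were thus lowest in RORgt-Tbet-KO, intermediate in Control and higher in both knockouts that kept Tbx21. RORgt-Tbet-KO and RORgt-KO values chose these peaks, so their levels are a description. The 65 higher peaks had medians of 7.68 and 7.73 in RORgt-Tbet-KO, 6.78 and 6.43 in RORgt-KO, 6.93, 6.77 and 7.15 in RORgt-RORa-KO and 6.77, 6.68 and 6.79 in Control. The peaks without a call had medians between 5.90 and 6.03 in every library.

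**Figure D5:**
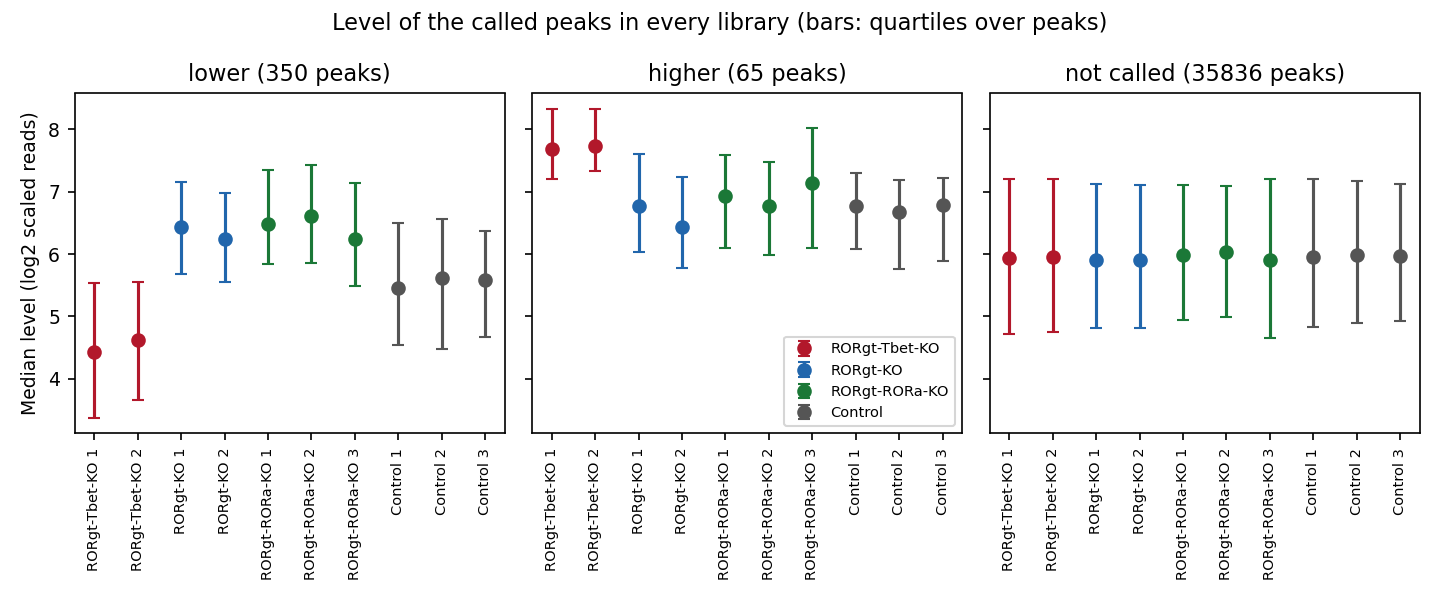
Median level (log2 scaled reads) of the lower, higher and uncalled peaks in each of the 10 libraries; bars span the quartiles over peaks. The lower set sits at 4.44 and 4.63 in RORgt-Tbet-KO and between 5.46 and 6.61 in the other libraries.

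The changed peaks lay away from gene ends. Within 1 kb of a gene end lay 5.71% of lower and 9.23% of higher peaks, against 30.2% of peaks without a call. Inside genes lay 41.4% of lower and 49.2% of higher peaks, against 39% of the uncalled. More than 50 kb from any protein-coding gene lay 21.1% of lower and 9.23% of higher peaks, against 10.1% of the uncalled. Near RefSeq transcript starts (within 1 kb), 12 of 331 lower peaks were found, against 9193 of 34582 uncalled peaks (26.6%).

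The peaks of ILC genes were present in all groups. These genes (Id2, Il7r, Thy1, Gata3, Il2rb, Tox and Nfil3) all had peaks. Among their 52 peaks 0 were called, against 1.14% over all peaks, and the median difference was 0.03. Among listed genes of other cells, no peak was present at Cd3g, Cd8a, Cd79a, Ms4a1, Csf1r, Lyz2 or Krt18. Peaks lay at 5 of 9 T cell, 3 of 7 B cell and 5 of 8 myeloid genes, among them Cd3e, Pax5 and Spi1. They also lay at 4 of 7 epithelial and 4 of 7 stromal and endothelial genes, among them Epcam and Pdgfra. The summed level of 9 T cell peaks, on the linear scale, was 532 to 603 in RORgt-Tbet-KO, against 457 to 501 in RORgt-KO. That of 12 B cell peaks was 721 to 846 in RORgt-Tbet-KO, against 680 to 696 in RORgt-KO, and that of 9 myeloid peaks 475 to 514 in RORgt-Tbet-KO, against 512 to 528 in RORgt-KO. For 9 epithelial peaks the sums were 749 to 811 in RORgt-Tbet-KO, against 678 to 682 in RORgt-KO, and for 16 stromal and endothelial peaks 1330 to 1358 in RORgt-Tbet-KO, against 980 to 1022 in RORgt-KO. Of the peaks of these 5 lists, that of Krt8, an epithelial keratin, passed (1.09, SE 0.27, adjusted p = 0.042), at 7.48 and 7.38 in RORgt-Tbet-KO, 6.28 and 6.41 in RORgt-KO and 7.18 to 7.23 in Control; it was lost without any one of the 4 libraries (adjusted p from 0.247 to 0.442). On the same scale, the 52 peaks of ILC genes summed to 5877 to 6132 in RORgt-Tbet-KO, against 5136 to 5400 in RORgt-KO. The 30 housekeeping peaks summed to 5114 to 5226 in RORgt-Tbet-KO, against 4526 to 4676 in RORgt-KO. Higher sums were thus not particular to genes of other cells. The part of other cells in the results was not tested.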

How the data were processed

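The submitters' processing notes name Trim Galore 0.62, Bowtie2 2.3.5.1, SAMtools and MACS2, with GRCm38 as build. The authors deposited 1 table of 36262 peaks whose entries are log2 values of scaled reads; the sources used here do not say where the scaling comes from. Back-transformed, every value above an empty peak was a whole multiple of 1 step per library (tolerance 0.01), empty peaks held 0.9 of a step, and division gave the reads. Their number sets the precision of a peak.

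The log2 values of all 4 groups were fitted in limma 3.58.1 (R 4.3.3) with a mean-variance trend, no filter and no covariate, leaving 6 residual and 22.5 prior degrees of freedom. p-values were adjusted by Benjamini and Hochberg over 36251 peaks, and the difference is RORgt-Tbet-KO minus RORgt-KO. The fit was also run on simulated reads with planted changes and the same spread setting for every library. That run checked the direction of the calls, and cannot show how the test fares with libraries of unequal spread. The main test used the deposited log2 values, and the reads recovered from them entered an alternative fit through voom. The comparison, gene lists and naming rule were chosen with earlier results of these data known. Named were all Tbx21 peaks, the 15 largest increases and decreases past the threshold with separate libraries (gene within 50 kb, predicted genes left out, 1 peak for each gene) and, per list, up to 4 genes with the smallest p. The peaks of the other targeted gene are not reported here. Alternatives covered scaling, depth, filters, pseudocounts, the trend, the samples fitted, a replicate block, weights and leaving out each library. Motifs were searched on both strands of 32851 RefSeq promoter windows; 77 of 91 named genes had one. Figures were drawn with matplotlib 3.10.9.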

Additional observations from a re-analysis of the deposited data

How the results depend on the processing

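Against 415 changed peaks (65 higher, 350 lower), voom with TMM scaling on recovered reads gave 637 (184 higher), the upper peaks by level 218 (157 lower), a fit without the mean-variance trend 95 (4 higher, 91 lower), the RORgt-Tbet-KO and RORgt-KO libraries alone 3341 (1936 higher, 1405 lower), library weights 3148 (1570 higher, 1578 lower), and a pseudocount of 4 107 higher. Fits that left out one library each gave 91 to 712 peaks, 1 to 249 higher and 72 to 463 lower. Quantile, library-median and cyclic loess scaling, centring on gene-end peaks, a minimum of 20 reads, a pseudocount of 1 and thinning to equal depth stayed within 1.5 times the count; the cyclic loess, gene-end and 20-read settings were chosen after seeing the data. The labels do not say whether replicate numbers pair the libraries. The correlation of replicate differences between RORgt-Tbet-KO and RORgt-KO was -0.0662, which cannot decide it, as each group gives a single difference. With replicate numbers as a block, 666 peaks passed, 200 of them higher, and all 415 calls held. Of 77 named changed peaks, 15 passed without any one library of the groups, 13 passed in every alternative that tested them, and none changed direction. Direction could change only under thinning or a scaling other than centring. Centring moved all peaks alike and by little, and the other fits kept the estimate or left the libraries apart. Thinning ended 21 of the calls and the fit without the trend 57. The cause of these shifts was not tested. The planned count tests with edgeR and DESeq2 were not run, although whole reads could be recovered from the log2 values. With 38 to 73 reads in the median peak of the groups, small changes of low peaks were not detectable.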

Other observations

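Further immune genes had changed peaks; they were picked after their values were seen. Ctla4, an inhibitory receptor, had a peak 4640 bp away at 5.16 and 5.27 in RORgt-Tbet-KO and at 6.82 and 6.99 in RORgt-KO (-1.69, SE 0.29, limma adjusted p = 0.000985), which held without any one of the 4 libraries (adjusted p at most 0.0427). Runx2, a RUNX factor, had an intronic peak at 4.72 and 4.50 in RORgt-Tbet-KO and at 6.88 and 6.17 in RORgt-KO (-1.92, SE 0.31, adjusted p = 0.000641; 0.0792 without RORgt-KO replicate 1). Tnfrsf8, which encodes CD30, had an intronic peak at 4.23 and 5.24 in RORgt-Tbet-KO and at 6.82 and 6.61 in RORgt-KO (-1.98, SE 0.32, adjusted p = 0.000574; 0.0656 without RORgt-Tbet-KO replicate 1). Nod1, a sensor of bacterial cell wall fragments, had 2 lower of 3 peaks (-2.53, SE 0.46, and -1.95, SE 0.39), each lost without RORgt-Tbet-KO replicate 1 (adjusted p = 0.112 and 0.236) and without RORgt-KO replicate 1 (0.114 and 0.163). A peak in Pdcd1, which encodes PD-1, fell by 1.00 (SE 0.21, adjusted p = 0.00877; 0.099 to 0.199 without any one of the 4 libraries). At the interferon-induced genes Ifih1 and Ifit3b, peaks fell by 1.71 (SE 0.36, adjusted p = 0.0104) and 1.28 (SE 0.31, adjusted p = 0.0339). They were lost without any one of the 4 libraries at Ifih1 (adjusted p from 0.0801 to 0.168) and without 3 of them at Ifit3b (up to 0.654 without RORgt-Tbet-KO replicate 2).

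The higher peaks were unevenly spread over chromosomes. Chromosome 11, which carries Tbx21, held 6.25% of all peaks, 12 of the 65 higher ones (18.5%) and 8 of the 350 lower ones (2.29%). The median difference over its 2266 peaks was 0.19, against 0.02 over all peaks and between -0.08 and 0.09 on every other chromosome tested. Across the alternatives that called at least 40 higher peaks, chromosome 11 held 11.9% to 22.1% of them. That cut drops the fit without the mean-variance trend, where chromosome 11 held 1 of 4. It also drops the 4 fits without a library of RORgt-Tbet-KO or RORgt-KO, so it does not show whether the share depends on a single library.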
